A study of Canis lupus familiaris with 20 samples.

Results

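The comparison described here is that of the CNTF-injected with the PBS-injected eyes of 5 dogs homozygous for a mutant CNGB3 allele (CNGB3m/m, carrying the D262N missense change). Its samples are the 10 retina arrays, of 20 in the series, whose titles name a mutant eye, with the right and left eye of a dog joined by their shared number. Its features are the 26882 of 43603 non-control probes that stood well above background on at least 4 of the 5 arrays of either group. In the series, 10 dogs of one research colony received 12 µg of CNTF in the vitreous of the right eye and PBS in the left eye, and retinal RNA was taken 1 week later and hybridised to one-colour Agilent canine arrays. The mutant dogs were 2 males and 3 females, aged 10.7 to 11.5 weeks by their sample labels. The 5 normal dogs, used here for the comparison of responses and for the estimate of the spread, were all male, 8.9 weeks old by their labels, 4 of them heterozygous carriers of the mutant allele (CNGB3+/m) and 1 of them CNGB3+/+. The series' design text instead gives an age of about 11 months for both groups, so the age is uncertain. Every eye was injected, and the comparison is of CNTF with the injected vehicle, not with an untouched eye.

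CNGB3 is a subunit of the cyclic nucleotide-gated channel of cone photoreceptors, and its loss causes achromatopsia, a day blindness in which cones are present but do not respond to light. Ciliary neurotrophic factor (CNTF) is a cytokine of the interleukin-6 family that signals through its own receptor subunit, LIFR and gp130 to JAK kinases and STAT3. It is known for keeping photoreceptors alive in degenerating retinas, for lowering the expression of phototransduction genes, and for acting on Müller glia, the main supporting cells of the retina.

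The arrays read each transcript with a probe of 60 bases. The probes below belong to genes on which the results turn, and were shown because each spans more genome than its own length, so that it crosses an intron and reads spliced RNA, and because each has a reading frame without a stop. They are written 5′ to 3′ as the array files give them, in lower case throughout, since no part of a probe is singled out. Positions are on canFam2, per the array files: C3 at chr20:56542868-56543122, CCL19 at chr11:54387092-54387241 (minus strand), IRF1 at chr11:23781073-23781586 (minus strand), ARR3 at chrX:57655235-57656851, GUCA1A at chr12:13799075-13799399 and OPN1LW at chrX:125026905-125028198.
C3: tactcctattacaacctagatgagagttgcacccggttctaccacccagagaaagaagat
CCL19: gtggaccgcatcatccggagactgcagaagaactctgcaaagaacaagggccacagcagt
IRF1: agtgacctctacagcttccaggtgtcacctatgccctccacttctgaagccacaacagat
ARR3: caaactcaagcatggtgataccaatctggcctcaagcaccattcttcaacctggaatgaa
GUCA1A: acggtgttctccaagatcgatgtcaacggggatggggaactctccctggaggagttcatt
OPN1LW: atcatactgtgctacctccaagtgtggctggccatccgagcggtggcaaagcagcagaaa
None of these probes measures protein or the number of cells that carry the transcript. In these bulk samples, fewer cells of a type and less RNA per cell cannot be told apart.

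The CNTF and PBS eyes of the mutants lay apart along the main axis of variation, and they also lay on different slides. The first principal component of the 10 arrays held 46.5% of the variance and put the PBS eyes between -67.7 and -42.0 and the CNTF eyes between 43.5 and 75.3. Of 26669 probes that could be tested, 8463 differed between the eyes (31.7%) at an adjusted p under 0.05 (limma, dog as a block, Benjamini-Hochberg adjustment over all probes tested). Of these, 3374 were higher and 5089 lower with CNTF, so 39.9% of the calls were rises; with normexp background correction in place of the processed signal, which moved the median of all probes from -0.09 to 0.12, 1969 were higher and 1641 lower. The large changes were of the other kind. Past a log2 change of 2 in size, 514 probes were higher and 85 lower, and past 3, 239 were higher and 12 lower. The direction was the same in every measured dog for 7891 of the called probes (93.2%). Read as genes, with the brightest probe standing for each, 9756 were tested, of which 1426 were higher (14.6%) and 1753 lower (18.0%), with a median change of -0.05. These shares are the background against which the counts below are read.

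Arrays were run 4 to a slide, and no slide held both a CNTF and a PBS array of the mutants. PBS eyes 1 to 3 lay on slide 2 and PBS eyes 4 and 5 on slide 3, CNTF eye 1 on slide 4, and CNTF eyes 2 to 5 on slide 5, which held no other array. For those 4 eyes slide and treatment cannot be told apart. In every dog, dog 1 included, the paired change also crosses slides. With slide as a fixed block in place of the dog, the CNTF arm of the mutants therefore rests on eye 1 alone, reached through arrays of normal dogs on slides 3 and 4 and assumed to vary like the other groups. The PBS arm under that block is PBS eyes 4 and 5, on slide 3. Slide-block values given below thus set CNTF eye 1 against PBS eyes of other dogs, by way of CNTF arrays of normal dogs. They are not the change of dog 1, and neither a call nor a lost call under that block bears on all 5 dogs. Under it 834 probes were called, and 91.1% of the calls that it could estimate kept their sign. With slide as a random block beside the dog 4806 were called, and with normexp background correction 79.2% of the calls kept their sign. On the mutant arrays 52.2% to 70.1% of probes stood above background, and the 75th percentile of the signal was 291 to 528 intensity units. The lowest shares above background were those of CNTF eyes 1 (52.2%) and 2 (55.4%), and their part in the results was not tested beyond leaving out each dog in turn.

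Genes of the pathway through which the injected cytokine signals rose. Of 20 measured genes of the JAK and STAT list, 11 rose and 0 fell, with a median change of 0.55. STAT3, the transcription factor that gp130 activates, had levels of 0.42, 1.23, 0.59, 0.89 and 0.73 in the PBS eyes of dogs 1 to 5 and 2.33, 2.56, 2.17, 2.56 and 2.21 in their CNTF eyes, where a level is the log2 signal minus the 75th percentile of its array. The groups did not overlap, and the rise was 1.60 ± 0.12 (SE; 3.02-fold; adjusted p 2.5e-06). Its 4 probes rose by 1.23 to 1.71. JAK1 rose by 0.36 ± 0.10, and BCL6, a repressor whose gene is a STAT target, by 1.00 ± 0.08 with an SD between dogs of 0.06.

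IRF1, a transcription factor of interferon signalling, stood at -3.19, -2.93, -2.80, -3.04 and -2.94 in the PBS eyes and at -0.86, -0.72, -0.93, -1.01 and -1.16 in the CNTF eyes. Every CNTF value lay above every PBS value, the SD of the change between dogs was 0.23, and the rise was 4.13-fold (log2 2.05 ± 0.16; adjusted p 3.4e-06). PTPN6, a phosphatase that turns off cytokine receptors in blood cells, rose 4.51-fold. The negative regulator SOCS1 had a change of -0.22 ± 0.13 and was not called. Of 6 measured genes of gp130 ligands and receptors, 1 rose and 0 fell. That one was the dog's own CNTF transcript (0.76 ± 0.18; adjusted p 0.0084), which was not called with slide as a block (0.99; adjusted p 0.45). LIFR, the receptor partner of gp130, changed by -0.09 ± 0.29 and was not called, and the other subunits of the CNTF receptor, CNTFR and IL6ST (gp130), were not measured.

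**Figure D1:**
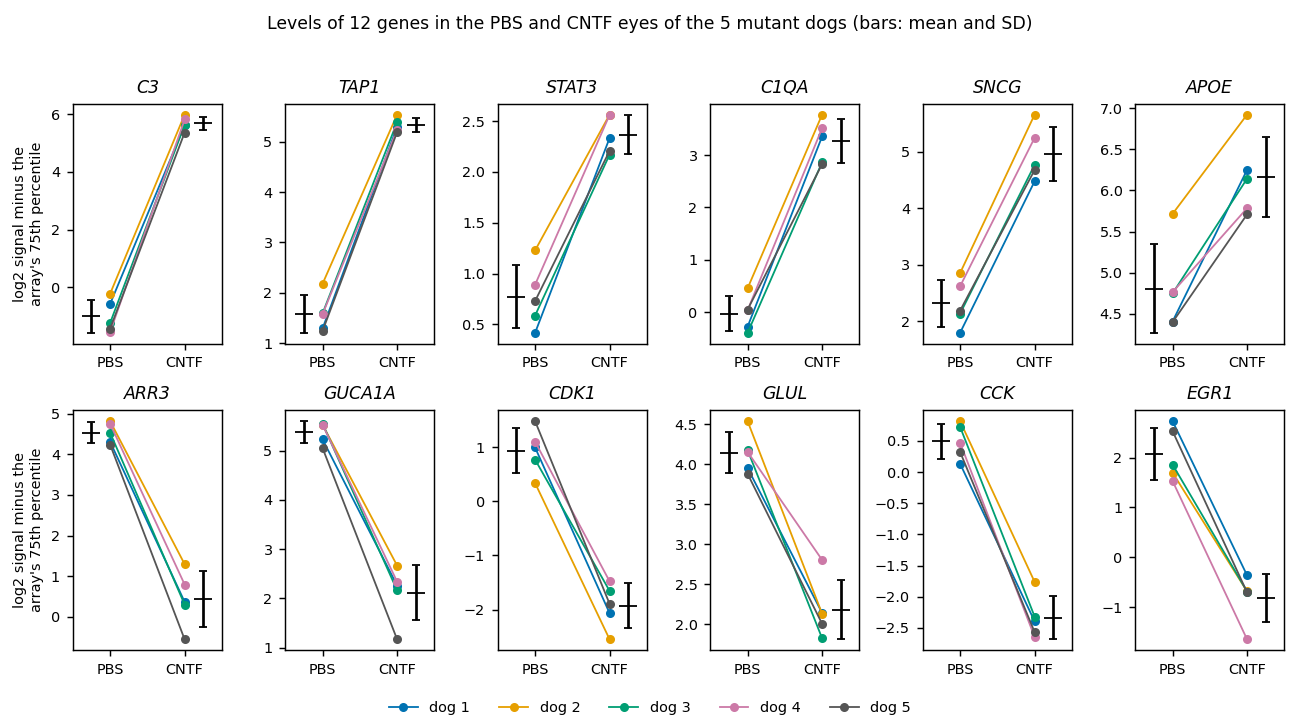
Level of 12 genes, as log2 signal minus the 75th percentile of the array (y axis, scaled to each panel), in the PBS and CNTF eyes of the 5 mutant dogs; lines join the eyes of a dog and bars give the mean and SD over 5 eyes. In the upper row every dog's CNTF eye lies above its PBS eye, and in the lower row below it; C3 went from between -1.56 and -0.23 to between 5.37 and 5.99, and ARR3 from between 4.24 and 4.82 to between -0.56 and 1.29.

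Interferon-response genes rose as a group. Of 23 measured, 20 rose and 0 fell, against 14.6% of all genes higher, and the median change was 2.26, with dog medians from 1.91 in dog 2 to 2.64 in dog 3. MX1, an antiviral GTPase, had PBS levels of 0.51, 1.97, 1.12, 0.96 and 0.98 and CNTF levels of 4.28, 4.92, 4.62, 4.37 and 4.63. Dog 2 was the highest in both groups and had the smallest change, and the groups were far apart (11.0-fold; log2 3.46 ± 0.27; adjusted p 2.8e-06). DHX58, which binds viral RNA in the cytoplasm, rose 30.7-fold from levels that passed background on 1 of 5 PBS arrays, IFI44L rose 15.9-fold, OAS1 7.91-fold and PARP12 3.87-fold. ISG15, a ubiquitin-like protein, rose 18.7-fold, but with slide as a block its change of 4.33 had an adjusted p of 0.11. The 3 genes not called were IFIT1, IFI6 and IRF9. IFIT1 was higher in 3 dogs and lower in 2, and its CNTF levels ran from -5.76 in dog 2 to -1.44 in dog 1.

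Antigen-presentation genes rose in nearly the whole list. Of 15 measured genes of MHC class I and the immunoproteasome, 14 rose, with CALR the exception, and the median change was 2.45. TAP1, which carries peptides to class I molecules, had PBS levels of 1.29, 2.18, 1.59, 1.57 and 1.24 and CNTF levels of 5.30, 5.55, 5.40, 5.24 and 5.20. The CNTF eyes were packed within a narrow range and dog 2 had the highest PBS eye (13.6-fold; log2 3.76 ± 0.22; adjusted p 3.6e-07). The immunoproteasome subunits PSMB8 and PSMB10 rose 19.7-fold and 12.0-fold, and B2M, the invariant chain of class I molecules, 8.47-fold. Of 15 measured class II genes, 11 rose and 0 fell, with a median of 2.35. The rises hold both DLA-DQB1 and HLA-DQB1, a canine and a human name, so the 15 entries may not all be distinct genes. DLA-DRA, a class II chain of antigen-presenting cells, rose 12.1-fold and its chaperone CD74 7.60-fold, whereas the class II regulators RFX5, RFXAP and RFXANK were not called and CIITA, the master regulator, rose by 0.54 ± 0.11 on its brightest probe and by 3.69 on another.

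Complement and acute-phase transcripts gave the largest rises. The 16 measured complement genes had 14 rises, 0 falls and a median of 2.56, and the 12 acute-phase genes 9 rises, 0 falls and a median of 3.47. C3 is counted in both lists, and VMO1, described below, is part of the acute-phase count and median. C3, the central complement protein, went from -0.58, -0.23, -1.25, -1.56 and -1.44 to 5.63, 5.99, 5.64, 5.82 and 5.37. The CNTF eyes differed by less than 1 unit among themselves and stood far above all PBS eyes (104-fold; log2 6.70 ± 0.31; adjusted p 9.5e-08), and its 5 probes rose by 5.86 to 7.02. The first-component genes C1QA (9.79-fold), C1R (5.83-fold) and C1S (5.50-fold) and the protector CD59 (2.99-fold) rose as well. The gene named CFB, a protease of the alternative pathway, rose 15.1-fold on its brightest probe, but the array describes that probe as similar to complement component 2, so which of the neighbouring genes it reads is uncertain, and another of the 4 probes rose by 0.43.

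FGG, the gamma chain of fibrinogen, rose 155-fold in these retinas, yet FGA, the alpha chain of the same protein, changed by 0.15 ± 0.11 and was not called. VMO1, placed in the acute-phase list from the earlier results and known as a homologue of an egg-membrane protein rather than as an acute-phase protein, rose 150-fold with an SD of 0.14 between dogs. SERPINA1 and A2M, protease inhibitors of plasma, rose by 3.24 and 3.70 on the log2 scale. SERPINA3, a further inhibitor, whose probe the array describes as the related SERPINA5, was less even: its PBS levels were -2.01, 2.10, -0.76, 1.04 and -1.82 and its CNTF levels 1.58, 1.81, 2.19, 4.09 and 0.97. The PBS eyes of dogs 2 and 4 were already high, dog 2 fell slightly, and the groups overlapped (log2 2.42 ± 0.58; adjusted p 0.0081; not called with slide as a block, adjusted p 0.74). Ceruloplasmin (CP), a copper carrier, showed the same 2 high PBS eyes, at 3.47 and 3.08 against 1.00 to 1.23 in the other 3 dogs.

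Transcripts of microglia and macrophages were higher. Of 26 on the array 19 were measured, of which 17 rose, 0 fell and CD68 and SIGLEC1 were not called. The median change was 2.54, or 2.25 where the 4 genes that allow only a bound were entered at that bound. CSF1R, the growth-factor receptor of these cells, had PBS levels of -3.33, -2.26, -2.63, -2.31 and -2.94 and CNTF levels of -0.36, 0.29, -0.27, 0.21 and -0.56. All CNTF eyes lay above all PBS eyes (5.88-fold; log2 2.55 ± 0.16; adjusted p 5.5e-07), although a second, dimmer CSF1R probe changed by -0.12, and with slide as a block the value was 2.10 (adjusted p 0.068). PTPRC, the common leukocyte antigen CD45, rose 10.3-fold. LYZ (lysozyme) rose 8.14-fold and AIF1, a microglial calcium-binding protein, 3.77-fold. CX3CR1 and CD163, receptors of resting microglia and of scavenging macrophages, were below background in every PBS eye and rose at least 2.46-fold and at least 4.76-fold. Both passed the filter through the CNTF eyes alone, so a fall could not have been seen in them. The same holds for the other rises given in the text as at least a fold. For such a bound the PBS level was replaced, array by array, with the lowest signal that counted as above background wherever the probe lay below it.

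The chemokine CCL19, which draws lymphocytes and dendritic cells, was below background in all PBS eyes, with levels of -5.30, -6.13, -5.87, -6.49 and -6.82, and read 0.68, 1.25, 0.18, -0.04 and 0.47 in the CNTF eyes. No PBS eye came near any CNTF eye, and the rise was at least 28.7-fold (adjusted p 1.0e-07). CCL19 passed the filter through the CNTF eyes alone, so a fall could not have been seen in it. CCL5 rose at least 4.94-fold, CCL2, which draws monocytes, 17.3-fold and the adhesion molecule VCAM1 3.22-fold. Of 29 chemokine, adhesion and cytokine genes on the array 15 were measured, of which 11 rose and 0 fell. The median change was 1.69, or 1.19 where the 4 genes that allow only a bound were entered at that bound. Genes that passed the filter through the CNTF eyes alone, such as CCL19, could add to the rises but not to the falls.

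Markers of other blood cells were mixed. Of 10 measured T and NK cell markers 5 rose (CD3D, CD8A, IL7R, GZMA, NKG7), 2 fell (CD4, PRF1) and 3 were not called, and their summed signal, in units of the 75th percentile of the array, was 2.98 to 4.29 in PBS eyes and 3.47 to 5.07 in CNTF eyes. CD3D, a chain of the T cell receptor complex, was at or under background in all PBS eyes and rose at least 2.99-fold, with 4 of 5 CNTF arrays above background; GZMA, a protease of killer cells, rose at least 3.21-fold. Neither was called under the slide block (adjusted p 0.17 and 0.10), nor were CX3CR1 (0.14) and CD163 (0.095). The T cell markers CD2, CD3G and CD8B did not pass the filter in either group. Of 4 measured B cell markers 0 rose and 2 fell, with MS4A1 and PAX5 not passing the filter. Of 6 neutrophil markers 2 rose and 1 fell, their sums overlapped (2.54 to 5.16 and 1.76 to 3.63), and CSF3R, CXCR2 and ELANE did not pass. The part of such cells in the immune transcripts was not tested.

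**Figure D2:**
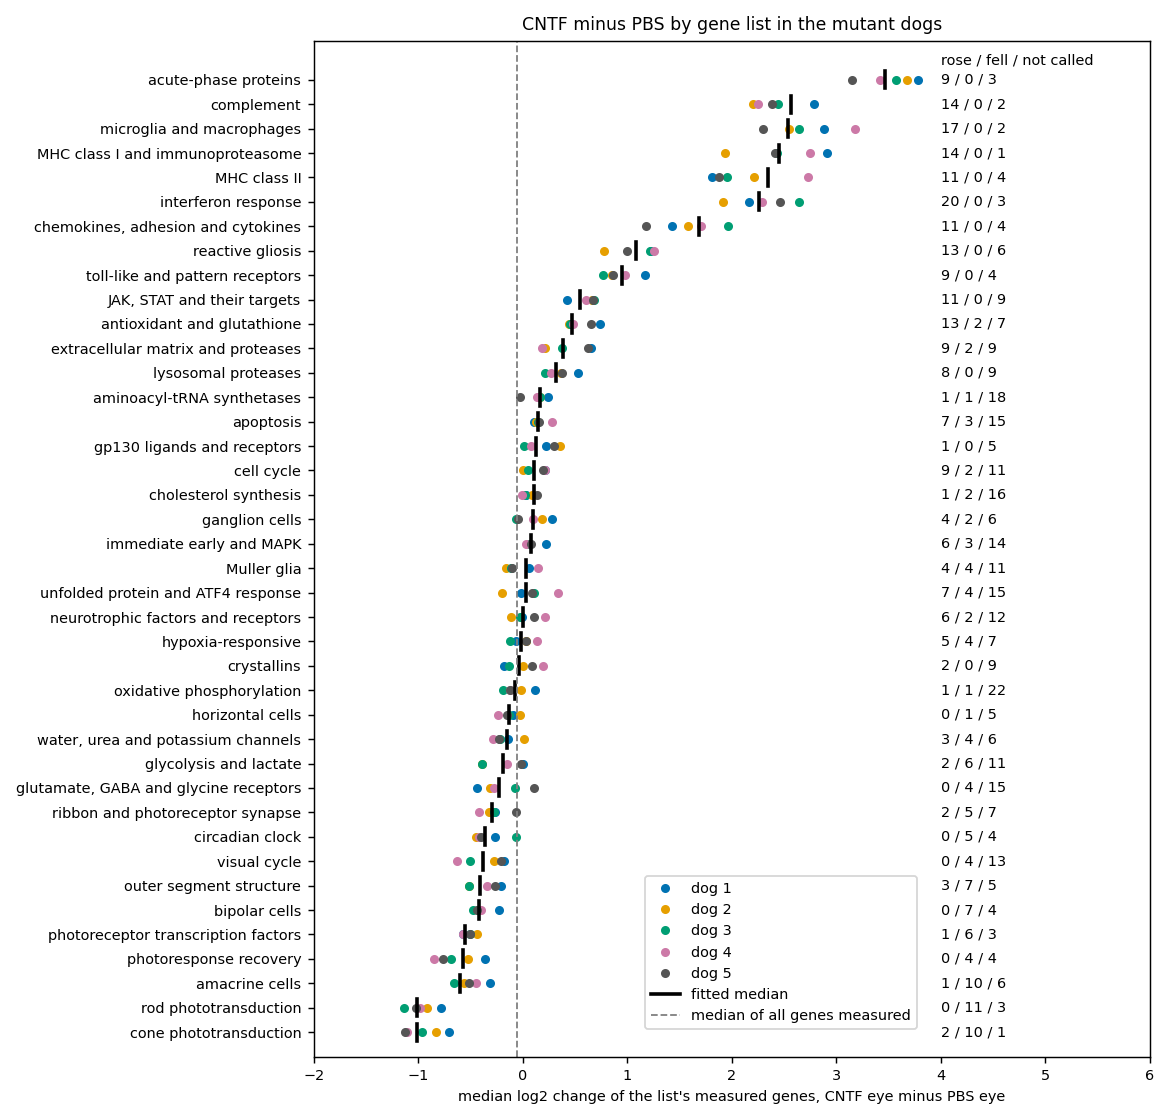
Median log2 change (x axis, CNTF eye minus PBS eye) of the measured genes of each of 40 lists, 1 list per row; coloured points are the 5 mutant dogs, the black bar is the median of the fitted changes, the dashed line the median over all 9756 genes (-0.05), and the figures at the right count genes that rose, fell or were not called. The immune lists lie at 1.69 to 3.47 for all but the toll-like receptors (0.94), and cone and rod phototransduction lie at -1.01. With bounds in place of fitted changes for genes below background in 1 group, the chemokine list lies at 1.19 and the microglia list at 2.25.

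Genes of reactive glia rose. Of 19 measured genes of reactive gliosis, the state of glia after injury, 13 rose, 0 fell and the median was 1.09. SERPINA3, A2M and CP are among these rises and are counted in the acute-phase list as well. TIMP1, an inhibitor of matrix proteases, had PBS levels of 1.84, 2.55, 1.93, 1.88 and 1.95 and CNTF levels of 5.00, 5.76, 5.34, 5.17 and 5.06. The 5 dogs rose in parallel, with an SD of 0.12 (9.43-fold; log2 3.24 ± 0.13; adjusted p 4.5e-08). CHI3L1, a secreted lectin, rose at least 31.2-fold and S100A10 2.75-fold. GFAP, the filament by which reactive glia are usually recognised, was dim here: it passed background on 2 PBS and 4 CNTF arrays. It changed by 1.76 ± 0.20 (adjusted p 4.3e-05), and stood at -0.58 under the slide block. Of the mutant eyes, that block takes only CNTF eye 1 and PBS eyes 4 and 5. VIM, the other glial filament, changed by -0.26 ± 0.15 and was not called.

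Müller glia genes, 19 of them measured, had 4 rises and 4 falls, close to the shares over all genes (14.6% and 18.0%), with a median of 0.03. GLUL, the glutamine synthetase that clears glutamate, had PBS levels of 3.95, 4.54, 4.18, 4.16 and 3.88 and CNTF levels of 2.14, 2.13, 1.83, 2.81 and 2.01. Every CNTF eye was below every PBS eye, with the smallest fall in dog 4 (3.88-fold; log2 -1.96 ± 0.21; adjusted p 3.2e-05; with slide as a block -2.05, adjusted p 0.073). The urea transporter SLC14A1 fell 9.47-fold, CA2, a carbonic anhydrase, 1.84-fold, and RLBP1, a carrier of retinaldehyde, 2.20-fold. APOE, a lipid carrier, rose 2.56-fold and PDPN 2.57-fold. The water channel AQP4, typical of Müller endfeet, rose by 0.97 ± 0.20, in 4 of 5 dogs, while AQP3, a channel of epithelia, rose 61.2-fold in all 5 and AQP1 10.1-fold. SOX2, SOX9 and SLC1A3, further Müller genes, were not called.

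Cone transcripts fell, though not all to the same extent. Of 13 measured genes of cone phototransduction 10 fell, against 18.0% of all genes lower, 2 rose and the median change was -1.01. ARR3, the cone arrestin, read 4.31, 4.82, 4.53, 4.75 and 4.24 in the PBS eyes and 0.36, 1.29, 0.30, 0.79 and -0.56 in the CNTF eyes. It was the largest fall of any gene measured on both sides (17.1-fold; log2 -4.09 ± 0.18; adjusted p 8.2e-08; with slide as a block -3.94, adjusted p 0.0049), and dog 5 had the lowest CNTF eye. GUCA1A, a calcium sensor of guanylate cyclase in cones and rods, went from 5.23, 5.52, 5.54, 5.52 and 5.05 to 2.26, 2.66, 2.16, 2.34 and 1.17, again lowest in dog 5 (9.55-fold; log2 -3.26 ± 0.21).

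The cone opsins fell less. OPN1SW, the short-wave opsin, had PBS levels of 1.62, 1.20, 1.29, 1.19 and 0.85 and CNTF levels of -0.59, -1.21, -0.21, -1.81 and -0.28 (4.15-fold; log2 -2.05 ± 0.24; adjusted p 6.0e-05). OPN1LW, the opsin of the other cones, went from -0.75, -0.39, -0.31, -0.44 and -0.52 to -1.45, -1.44, -1.61, -1.87 and -2.05 (2.30-fold; log2 -1.20 ± 0.16; adjusted p 0.00013). Neither opsin's groups overlapped, and neither was called with slide as a block (-1.73, adjusted p 0.19, and -0.75, adjusted p 0.66). KCNV2, a potassium channel subunit of photoreceptors, fell 3.09-fold and PDE6H, an inhibitory phosphodiesterase subunit, 2.31-fold. The transducin subunit GNAT2 fell 2.65-fold and passed background on 3 of 5 CNTF arrays.

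The mutant channel gene CNGB3 itself was read by a probe at levels of -0.39, -0.73, -1.25, -0.26 and -0.59 in PBS eyes and -1.89, -1.54, -1.61, -1.27 and -1.61 in CNTF eyes. It was thus transcribed in all 10 eyes and fell 1.92-fold (log2 -0.94 ± 0.18; adjusted p 0.0024; not called with slide as a block, adjusted p 0.17). PDE6C, the catalytic cone phosphodiesterase, changed by -0.10 ± 0.12 and was not called. GNB3, the beta subunit of cone transducin, rose by 0.42 ± 0.11 and GUCA1C, a further cyclase activator, by 1.56 ± 0.36 (adjusted p 0.0068), so the list did not move as one. Under the slide block GUCA1C changed by 0.53 (adjusted p 0.93).

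Rod phototransduction fell by a similar amount. Of 14 measured genes 11 fell and 0 rose, with a median of -1.01 and dog medians from -0.78 in dog 1 to -1.13 in dog 3. GNB1 fell 2.40-fold on its brightest probe, and its 4 probes fell by 1.14 to 1.36. PDE6G, the inhibitory rod phosphodiesterase subunit, fell 2.21-fold. CNGA1, a subunit of the rod channel, fell 3.60-fold over the 3 dogs measured in both eyes. The rod arrestin SAG was saturated on all 10 arrays, which leaves no fold for it, and recoverin (RCVRN) was saturated on 9 of 10 and was not called. Of the 14 rod genes 2 were called under the slide block.

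**Figure D3:**
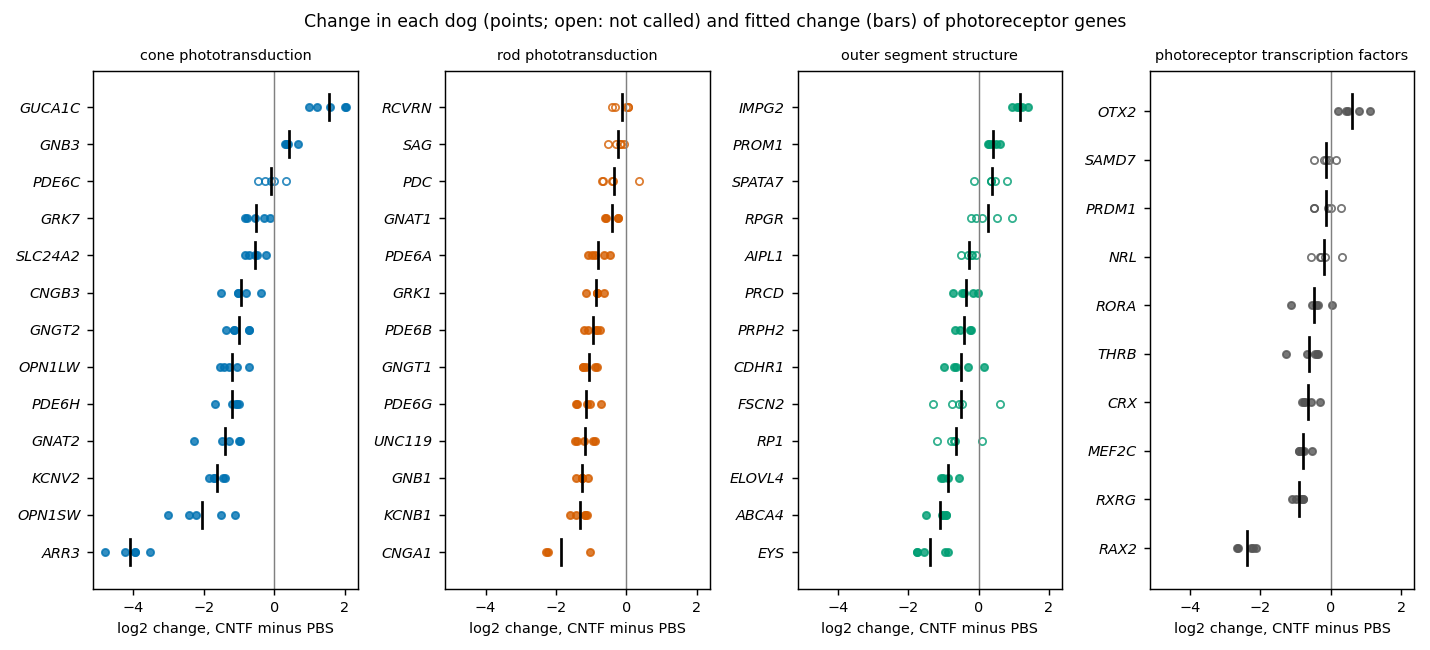
Log2 change (x axis, CNTF minus PBS) of measured genes of 4 photoreceptor lists; points are single dogs, filled where the gene was called, and bars are fitted changes. Most genes lie left of 0, and the called genes IMPG2, PROM1, GUCA1C, GNB3 and OTX2 lie right of it.

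Outer-segment genes moved in both directions. The 15 measured genes had 7 falls and 3 rises. ABCA4, the retinoid transporter of the disc rim, fell 2.12-fold. IMPG2, a proteoglycan of the matrix around outer segments, rose, from 2.92, 2.63, 2.72, 2.80 and 2.88 to 3.88, 4.03, 3.87, 3.89 and 4.12 (2.25-fold; log2 1.17 ± 0.10; adjusted p 5.6e-06; with slide as a block 1.14, adjusted p 0.034). The disc protein PROM1 rose by 0.41 and was not called with slide as a block (adjusted p 0.80).

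Of 10 measured photoreceptor transcription factors 6 fell and 1 rose. CRX, the homeobox factor of rods and cones, fell by 0.64 on the log2 scale (SE 0.14; adjusted p 0.0046), and OTX2, which acts before it in development, rose by 0.61 (SE 0.13; adjusted p 0.0037). RXRG and THRB, nuclear receptors of cones, fell by 0.90 and 0.63, and RAX2 fell by at least 1.76-fold to levels below background in all 5 CNTF eyes. RAX2 passed the filter through the PBS eyes alone, so a rise could not have been seen in it. The rod factor NRL was not called (-0.20 ± 0.14). THRB and RAX2 are dim, and with normexp background correction their changes were 0.091 and 0.058, so the direction of both turned. NXNL1, a thioredoxin-like gene of photoreceptors whose short product supports cones, fell 3.73-fold.

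In the visual cycle, which renews the chromophore, 4 of 17 measured genes fell, near the share of all genes lower (18.0%). None rose and 13 were not called. RDH8, a retinol dehydrogenase of outer segments, fell 3.46-fold and RGR 2.78-fold, and RLBP1 fell as well. A gene named CYP26A1 through its gene number, whose array description is that of CYP26C1, fell 3.91-fold. Both CYP26A1 and CYP26C1 degrade retinoic acid. RPE65 (-0.05 ± 0.13) and RBP3 (0.02 ± 0.16) were not called. Markers of pigment epithelium and melanocytes were present in the retinal samples: of 10 measured 4 fell (BEST1, PMEL, SLC45A2, RGR), 0 rose, and their summed signal was 218 to 419 in PBS eyes and 184 to 319 in CNTF eyes, with TYR, TYRP1 and MLANA not passing the filter. Their part in the visual-cycle values was not tested.

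At the synapse, CPLX4, a complexin of photoreceptor terminals, fell from 4.53, 4.90, 4.59, 4.88 and 4.36 to 3.21, 3.52, 3.07, 3.61 and 3.04. The 5 changes differed by an SD of 0.10 and the groups did not overlap (2.58-fold; log2 -1.36 ± 0.10; adjusted p 2.4e-06; with slide as a block -1.53, adjusted p 0.031). Its relative CPLX3 rose by 0.65 ± 0.21 in 4 of 5 dogs. STX1A, a membrane fusion protein, fell 9.70-fold to levels above background on 1 of 5 CNTF arrays, with an SD between dogs of 1.04 (with slide as a block, adjusted p 0.14). SYP, SYT1, VAMP2 and SNAP25, proteins of vesicles and their fusion in all synapses, were not called.

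Inner retinal neurons showed smaller falls. Of 11 bipolar cell genes 7 fell and 0 rose, with a median of -0.42, and the called falls that are named here were slight: GRM6, the glutamate receptor of ON bipolar cells, -0.61, PCP2 -0.59 and GNAO1 -0.55. GRM6 and PRKCA are dim and turned to 0.12 and 0.31 with normexp background correction. Of 17 amacrine cell genes 10 fell and 1 rose, with a median of -0.60. CCK, a neuropeptide of amacrine cells, had PBS levels of 0.14, 0.82, 0.73, 0.47 and 0.33 and CNTF levels of -2.39, -1.76, -2.32, -2.65 and -2.57. It stood far outside the rest of its list (7.13-fold; log2 -2.83 ± 0.14; adjusted p 1.6e-07; with slide as a block -2.86, adjusted p 0.0069). GAD1 and GAD2, which make GABA, fell by 0.79 and 0.60, and PAX6 by 0.60. None of GAD1, GAD2 and PAX6 was called with slide as a block. Of 6 horizontal cell genes 1 fell, ONECUT2, and 0 rose.

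Ganglion cell genes had calls in both directions. Of 12 measured 4 rose, 2 fell and the median was 0.09. SNCG, gamma-synuclein, went from 1.79, 2.85, 2.13, 2.61 and 2.18 to 4.47, 5.66, 4.77, 5.25 and 4.67. Dogs 2 and 4 were highest in both eyes, so the change varied little (SD 0.11; 6.28-fold; log2 2.65 ± 0.13; adjusted p 3.2e-07), but with slide as a block it was 1.62 (adjusted p 0.20). GAP43, a protein of growing axons, had PBS levels of -0.63, -0.66, -0.74, -0.95 and -0.92 and CNTF levels of 0.62, 0.28, 0.14, 0.25 and 0.16 (2.10-fold; with slide as a block 1.46, adjusted p 0.0014). THY1 rose 1.86-fold. The neurofilament genes NEFL and NEFM, axonal scaffolds, fell by 0.63 and 0.37, and NEFH, STMN2, UCHL1 and TUBB3 were not called.

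Among 20 measured neurotrophic factors and receptors 6 rose, 2 fell and the median was 0.00. NTF3, neurotrophin-3, had PBS levels of -1.30, -1.29, -1.29, -1.03 and -0.97 and CNTF levels of 1.18, 1.33, 1.38, 2.12 and 1.97. The larger CNTF values were those of dogs 4 and 5 (6.82-fold; log2 2.77 ± 0.18; adjusted p 8.1e-07; with slide as a block 2.21, adjusted p 0.030). BDNF rose by 1.00 ± 0.15 and its receptor NTRK2 by 0.46 ± 0.14, neither of them called with slide as a block (adjusted p 0.73 and 0.66). VEGFA was not called.

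EGR1, an immediate-early transcription factor that reports neuronal activity and MAPK signalling, fell. NR4A1 and DUSP4 of the same list fell too, while others of the list did not. The change of EGR1 was the largest of these falls. EGR1 had PBS levels of 2.73, 1.70, 1.86, 1.53 and 2.53 and CNTF levels of -0.37, -0.69, -0.69, -1.65 and -0.71. The lowest CNTF eye was that of dog 4, which also had the lowest PBS eye (7.41-fold; log2 -2.89 ± 0.18; adjusted p 6.5e-07; with slide as a block -2.34, adjusted p 0.21). MYC rose 2.66-fold, ATF3 by 0.73, and FOS and DUSP6 were not called. Of 23 measured genes 6 rose and 3 fell.

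Metabolic lists moved little as groups. Of 24 measured genes of oxidative phosphorylation 1 rose and 1 fell, and of 20 aminoacyl-tRNA synthetases 1 rose (AARS1, 2.75-fold) and 1 fell. Of 19 glycolysis and lactate genes 6 fell and 2 rose. PFKFB3, which drives glycolysis, fell 2.38-fold, the lactate carriers SLC16A1 and SLC16A3 fell 1.84-fold and 2.14-fold, the glucose transporter SLC2A1 by 0.72, and LDHA rose by 0.51. NDUFA4L2, whose mitochondrial product is made when oxygen is low, had PBS levels of 1.83, 1.29, 1.75, 1.59 and 1.71 and CNTF levels of -1.46, -1.27, -1.31, -1.44 and -0.82. That is a complete and tight separation (7.43-fold; log2 -2.89 ± 0.13; adjusted p 8.9e-08; with slide as a block -3.17, adjusted p 0.00015). HIF1A rose by 0.65 and ADM, another gene of the low-oxygen response, fell 2.52-fold, so that list had 5 rises and 4 falls of 16.

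Of 22 antioxidant and glutathione genes 13 rose and 2 fell (GSR and NQO1), with a median of 0.47. MT2A, a metallothionein, had PBS levels of 3.96, 4.49, 4.05, 4.77 and 4.16 and CNTF levels of 7.02, 7.22, 6.95, 6.94 and 6.67. The groups were well apart (6.39-fold; log2 2.68 ± 0.25; adjusted p 1.2e-05), and MT1E rose 5.57-fold, though near-identical metallothionein copies may share signal. Under the slide block the adjusted p of MT2A was 0.088 and that of MT1E 0.099. In the circadian list 5 of 9 measured genes fell and 0 rose, among them ARNTL (-0.67 ± 0.09) and AANAT (-0.84 ± 0.14), which makes the melatonin precursor in photoreceptors. Neither was called with slide as a block (adjusted p 0.067 and 0.92).

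Of 25 apoptosis genes 7 rose and 3 fell. BCL2, which protects from cell death, rose 2.33-fold and CASP4, an inflammatory caspase, 8.34-fold, whereas XIAP, an inhibitor of caspases, fell 3.05-fold. Of 22 cell cycle genes 9 rose, MCM3, MCM4, MCM5 and MCM6 of the replication helicase among them, and 2 fell. These were AURKB and CDK1, the mitotic kinase. CDK1 went from 0.99, 0.34, 0.77, 1.10 and 1.48 to -2.07, -2.55, -1.66, -1.48 and -1.89. No CNTF eye reached the PBS range (7.28-fold; log2 -2.86 ± 0.17; adjusted p 4.5e-07; with slide as a block -3.14, adjusted p 0.0014), while the proliferation genes AURKA, PLK1 and BIRC5 were not called.

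Extracellular matrix and vessel genes were mixed. Of 20 matrix and protease genes 9 rose and 2 fell. COL1A2, a collagen chain, rose 5.70-fold, although the 6 COL1A2 probes rose by 0.22 to 3.17. Of 8 fibroblast markers 4 rose (COL1A2, COL3A1, LUM, FAP) and 1 fell, and their summed signal was 3.05 to 6.29 in PBS eyes and 6.83 to 14.6 in CNTF eyes. Of 13 endothelium and pericyte markers 3 rose and 2 fell (KDR, 2.30-fold, and FLT1), and their sums overlapped (54.6 to 78.9 and 54.4 to 73.1). One of those rises was desmin (DES, 34.6-fold), the muscle filament of pericytes, beside which PDGFRB, RGS5 and MYH11 were not called; under the slide block it changed by 3.68 (adjusted p 0.29). The part of fibroblasts in the collagen values was not tested.

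Several of the largest changes belonged to genes outside these lists. MYOF, a membrane repair protein, rose 18.9-fold, with CNTF levels from 0.63 in dog 5 to 3.44 in dog 4, and BPI, a bactericidal protein, 19.6-fold. DPEP1, a membrane dipeptidase, rose at least 25.6-fold, CYP24A1, which degrades vitamin D, at least 12.1-fold, and BCL2A1, a survival gene of white blood cells, at least 10.2-fold. ASTE1 (25.4-fold), ZMAT1 (14.2-fold) and PABPC1L (at least 19.7-fold) also rose, all 3 named only by the annotation of the array. On the falling side were PLA2G5, a secreted phospholipase (11.6-fold over 3 dogs), its receptor PLA2R1 (9.07-fold), RFX4 (5.86-fold on its brightest probe, -0.27 on the other) and FABP12, a fatty acid carrier of the retina (5.48-fold). RGS3, a regulator of G proteins, fell 6.43-fold with an SD of 1.56, but its CNTF level in dog 1 (5.30) was about that of the PBS eye (5.38), another of its 3 probes changed by 0.53, and under the slide block it changed by 1.98. Among the mutant eyes, the slide-block value sets CNTF eye 1 against PBS eyes 4 and 5.

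The 5 dogs responded alike. Over the 8224 called probes measured in all dogs, 97.4% to 99.1% of the changes of a dog had the sign of the mean of the other 4 dogs. The slope of its changes on that mean was 0.89 in dog 1, 0.94 in dog 2, 1.00 in dog 3, 1.11 in dog 4 and 0.93 in dog 5. The lowest slope belonged to the dog with its CNTF array on slide 4, and the highest to a dog with arrays on slides 3 and 5. The median rise lay between 0.73 and 0.83 and the median fall between -0.65 and -0.54. Since the probes were called on these same dogs, the values describe evenness and test nothing.

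The response of the mutants could be set against that of the 5 normal dogs, whose own PBS eyes were the controls. In the difference of the 2 responses, 0 of 26641 probes were called (0.0%) by limma. Unadjusted, 9841 had a p under 0.05, a larger share than the 0.05 that chance alone gives. The lowest adjusted p was 0.091, a value that several probes shared. The 0 calls therefore do not show that the responses were equal. The medians in normal dogs were 2.36 for the interferon list (2.26 in mutants), 2.90 for complement (2.56), -0.83 for cone phototransduction (-1.01) and -0.43 for rod phototransduction (-1.01). Taken gene by gene, the median difference was -0.50 in the rod list, 0.18 in the cone list and -0.06 in the interferon list. It was -0.51 for glycolysis and lactate and -0.47 for aminoacyl-tRNA synthetases, so a gap of that size was not particular to the rod genes. ARR3 fell by 4.09 in mutants and 3.09 in normal dogs (SE of the difference 0.25, unadjusted p 0.0019). EGR1 fell by 2.89 and by 1.23, a difference of -1.66 ± 0.26 with an unadjusted p of 4.3e-05, which did not pass either (adjusted p 0.091). BDNF rose by 1.00 and 0.27. Age, sex and slide differ between the mutant and normal dogs and cannot be told apart from genotype here, and the count of calls in this difference was 57 with slide as a block, where the mutants' CNTF arm is eye 1, and 12 without dog 1.

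**Figure D4:**
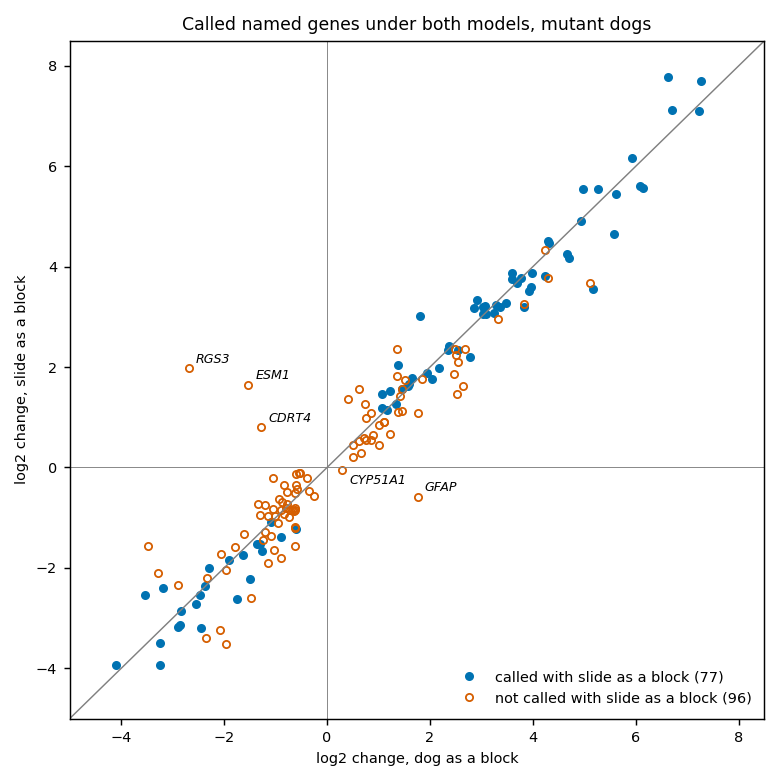
Log2 change of the 173 named and called genes that both models could estimate, with the dog as a block (x axis) and with the slide as a block in its place (y axis); the grey diagonal marks equal values. Among the mutant eyes, the y value sets CNTF eye 1 alone against PBS eyes 4 and 5. Filled points (77) were called with slide as a block and open points (96) were not; 168 of 173 kept their sign, and RGS3, ESM1, CDRT4, CYP51A1 and GFAP did not.

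Genes read by several probes gave a further comparison: 1488 of 1619 other probes of called genes (91.9%) changed in the direction of the brightest probe, and 326 of 336 (97.0%) where the gene had changed by at least 1.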

How the data were processed

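Per the file headers, the authors scanned 20 one-colour arrays and extracted them with Agilent Feature Extraction 9.5.3.1, which gives intensity values with the background subtracted and marks (other values, 0 or 1) for spots above background, saturated or uneven. The deposited series table holds log2 values that share 1 distribution on all arrays; the submitters' processing notes also name Partek 6.4, with no role. Here the intensity of each spot was divided by the 75th percentile of its array, log2 was taken, outlier spots were left out and spots of a probe were averaged. The deposited log2 table served as an alternative.

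Probes were fitted with limma 3.58.1 (R 4.3.3) on all 20 arrays, blocking on dog and estimating the CNTF change separately in mutant and normal dogs, tested where at least 3 dogs had both eyes measured, and called at an adjusted p under 0.05. The block rests on the labels, which give both eyes of a dog the same number; the correlation of the deviations of same-numbered eyes was 0.195 to 0.738. In 4 of 5 dogs (not dog 1) an eye correlated best with the other eye of that dog; over the 500 most variable probes this held in 3 of 5, and the lowest correlation was 0.162. Without the dog block (no replicate block) 6601 probes were called. The probe with the highest mean signal stood for a gene. The precision rests on 5 dogs a group. The p-values cover the spread between dogs but leave out what arrays of a slide share. With slide as a random block beside the dog, arrays of a slide had a correlation of 0.41 and 4806 probes were called.

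The members and lists were chosen with earlier results of these data known. The text names the 15 largest rises and falls measured on both sides, the 8 largest of each given as bounds, up to 4 called genes of each list by adjusted p, targets of the study, and the least and most even changes; other genes, among them those given as not called, were chosen from the lists after their values were seen. Other scalings, background corrections, filters, slide blocks and left-out dogs were tried. Some genes are not reported here.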

Additional observations from a re-analysis of the deposited data

Results flagged for a closer look

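In 5 of 110 groups of 5 eyes examined, 1 eye stood apart from the other 4 by more than Dixon's 95% critical value. Chance gives such a gap in about 1 in 20 groups, so 5 of 110 is about what chance gives. The PBS eye of dog 5 had an ASTE1 level of -0.30, against -0.81 to -0.68 in the other PBS eyes. PSMB8, an immunoproteasome subunit, stood at -1.38 in the PBS eye of dog 2 and at -2.45 to -2.25 in the others. EGR1, the activity-dependent transcription factor, stood at -1.65 in the CNTF eye of dog 4 and at -0.71 to -0.37 in the others. CYP24A1, which degrades vitamin D, stood at -1.60 in the CNTF eye of dog 1, against -0.62 to -0.40. ESM1, an endothelial proteoglycan, stood at -3.23 in the PBS eye of dog 2, against -3.77 to -3.66. In none of the 5 did that eye lie within the range of the other treatment.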

How the results depend on the processing

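Slide as a fixed block leaves the CNTF arm of the mutants with eye 1 alone, since slide 5 held CNTF eyes 2 to 5 and no other array. With slide in place of the dog, the PBS arm is PBS eyes 4 and 5 on slide 3. Those values are therefore not the paired change of any dog. Against 8463 calls (3374 higher, 5089 lower), slide as a block in place of the dog gave 834 (515 and 319), slide and dog together 112 (75 and 37), and slide as a random block 4806 (2040 and 2766). Normexp background correction gave 3610 (1969 and 1641), and a log2 change of at least 1 as well left 2125 (1265 and 860). Without the pairing of eyes (no replicate block) 6601 were called. Leaving out each dog gave 6524 to 7407. For the difference between mutant and normal dogs, slide as a block gave 57 calls, slide with dog 44, and leaving out a dog 0 to 12.

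Some directions turned, and the cause was not tested. With slide as a block these were cholesterol synthesis (median -0.22), RGS3 (1.98), CDRT4 (0.80), ESM1 (1.65), CYP51A1 (-0.049) and GFAP (-0.58). With slide and dog they were lysosomal proteases (-0.043), cholesterol synthesis (-0.31), RGS3 (3.06), CDRT4 (0.68), ESM1 (1.20), EDARADD (0.062), IGF1R (-0.38) and CYP51A1 (-0.18). With normexp they were the glutamate, GABA and glycine receptors (median 0.14), SLC2A12 (0.055), C10H22orf23 (0.15), RAX2 (0.058), CDRT4 (0.35), ESM1 (0.37), EDARADD (0.51), PIP4K2B (0.45), THRB (0.091), CACNB2 (0.39), GRM6 (0.12), PRKCA (0.31), ONECUT2 (0.17), VARS1 (0.43), GRIK5 (0.29) and CRY2 (0.20). The median over all probes of a gene turned cholesterol synthesis to -0.034. Dim probes near background and saturated ones limit what can be read. The planned count of promoter motifs was not run, because no promoter sequences were used here.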
